A study of Homo sapiens with 18 samples.

Results

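The transcripts described here are 10 genes for secreted signals of inflammation, the chemokines CXCL1, CXCL2, CXCL3, CXCL5, CXCL8, CCL2 and CCL20 and the cytokines IL6, IL1A and LIF. They were taken by gene symbol out of 22219 genes listed in either of a pair of raw count tables, 1 per cell line. The H1299 table lists 4 of the 10 (CXCL1, CXCL2, CXCL3 and LIF), and all 4 passed the filter on low counts. The A549 table lists 9 (all but IL6), of which 7 passed the filter, CCL20 and IL1A having too few counts.

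H1299 and A549 are human lines derived from non-small cell lung cancer. In each line, cells had received an siRNA pool against YAP (gene YAP1, siYAP), an siRNA pool against TAZ (gene WWTR1, siTAZ) or a control siRNA (siControl). Every group was transfected with 30 nM siRNA, was kept for 48 h and spent the last 18 h without serum, the controls included. H1299 cells were grown in RPMI-1640 and A549 cells in DMEM. Each of the 6 groups had 3 RNA-seq libraries of poly(A) RNA, 18 in all, and the study's question was how the loss of either factor changes the transcriptome of these cells. The labels do not say that replicates were separate cultures, so the p-values reflect only the differences among these libraries, which may be technical in origin. A pool of siRNAs leaves part of the target transcript, and each line comes from 1 tumour.

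YAP and TAZ are transcriptional coactivators of the Hippo pathway. They do not bind DNA themselves and reach their targets mainly through TEAD factors, often next to AP-1 sites. Chemokines are small secreted proteins that draw leukocytes along a gradient through receptors coupled to G proteins. CXCL1, CXCL2, CXCL3, CXCL5 and CXCL8 share a sequence motif ahead of their CXC cysteines, bind the receptor CXCR2 and draw neutrophils. CCL2 draws monocytes through CCR2, and CCL20 draws lymphocytes and dendritic cells through CCR6. IL-6 and LIF signal through the shared receptor chain gp130 to STAT3, and IL-1 alpha acts on IL1R1 and so switches on NF-κB. Epithelial and carcinoma cells make many of these signals themselves, and their genes are classical targets of NF-κB, AP-1 and C/EBP factors.

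The CXC members are neighbours on the long arm of chromosome 4, and the bases just before their transcription starts are shown first, since this is where the set shares a regulatory sequence. On GRCh38 (GENCODE release 29), CXCL8 lies at chr4:73740506-73743716 and CXCL1 at chr4:73869393-73871242, both on the plus strand. CXCL5 (chr4:73995642-73998779), CXCL3 (chr4:74036589-74038807) and CXCL2 (chr4:74097035-74099293) follow on the minus strand. Below are the 120 bases before the RefSeq start of each gene (GRCh38.p14), written 5′ to 3′ on the gene's strand, with the letters GGAATTTCC, a form of the NF-κB motif, in capitals.
CXCL8 (chr4:73740449-73740568, plus): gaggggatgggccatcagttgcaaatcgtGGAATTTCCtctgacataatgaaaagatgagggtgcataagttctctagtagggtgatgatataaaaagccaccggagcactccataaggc
CXCL1 (chr4:73869273-73869392, plus): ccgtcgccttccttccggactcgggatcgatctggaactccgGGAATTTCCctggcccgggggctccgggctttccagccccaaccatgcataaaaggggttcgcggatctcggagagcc
CXCL5 (chr4:73998678-73998797, minus): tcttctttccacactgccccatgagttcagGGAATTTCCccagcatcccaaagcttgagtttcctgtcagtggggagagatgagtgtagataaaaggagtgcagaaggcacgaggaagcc
CXCL3 (chr4:74038690-74038809, minus): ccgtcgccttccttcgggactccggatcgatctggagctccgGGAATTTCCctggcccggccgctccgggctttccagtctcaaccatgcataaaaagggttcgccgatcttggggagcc
CXCL2 (chr4:74099196-74099315, minus): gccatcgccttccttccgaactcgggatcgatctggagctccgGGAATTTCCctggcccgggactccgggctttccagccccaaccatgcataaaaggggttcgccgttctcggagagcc

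All 5 windows carry GGAATTTCC. Its first base stands 91 bases before the start in CXCL8, 90 in CXCL5, 78 in CXCL1 and CXCL3 and 77 in CXCL2. The same letters, on either strand of the 250 bases before the start, occur in 145 of 35114 RefSeq promoters (0.413%). CXCL1, CXCL2 and CXCL3 are close paralogs here too, with identities of 93.4% between the CXCL1 and CXCL2 windows, 90.8% between CXCL1 and CXCL3 and 88.4% between CXCL2 and CXCL3. The windows of CXCL5 and CXCL8 were 51.9% and 43.6% identical to that of CXCL1. GENCODE places some starts of CXCL2, CXCL3, CXCL5 and CXCL8 further upstream, inside these windows.

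RefSeq promoters were at hand for 8 members (9 entries, IL1A having a pair of starts), and CCL2 and LIF were not matched. None of the other 4 entries (CCL20, IL6 and both of IL1A) held GGAATTTCC in those 250 bases. Other forms of the NF-κB motif were not searched. The AP-1 letters TGANTCA, found in 6.57% of all promoters on either strand, were in CXCL8 and in both IL1A entries. The C/EBP letters TTGCNNAA, found in 9.05%, were in CXCL2 and IL6. The TEAD letters GGAATG, found in 11.9%, were in CCL20 alone. No match overlapped a match of another motif, and a match of letters is a description, not a measured binding site.

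Depth and knockdown were as follows. Libraries held 16.8 to 20.8 M assigned reads in H1299, and 10.7 to 45.0 M in A549. Levels are counts per M assigned reads (CPM) after TMM scaling, as mean ± SD with n = 3 libraries. YAP1 stood at 14.7 ± 4.29 CPM in siYAP and 81.8 ± 3.37 CPM in siControl cells of H1299, and at 17.3 ± 2.04 CPM in siYAP and 58.3 ± 1.32 CPM in siControl cells of A549. WWTR1 stood at 49.3 ± 29.1 CPM in siTAZ and 257 ± 24.7 CPM in siControl cells of H1299, with its weakest knockdown in siTAZ replicate 2 (82.7 CPM). In A549 it stood at 57.8 ± 11.2 CPM in siTAZ and 177 ± 2.74 CPM in siControl cells. WWTR1 in siYAP cells was also below every control library, at 181 ± 19.3 CPM in H1299 and 158 ± 4.56 CPM in A549. The siYAP groups thus had less of both transcripts. YAP1 in siTAZ cells was above every control library in H1299 (101 ± 4.72 CPM) and overlapped the controls in A549 (60.0 ± 2.35 CPM). The keratins KRT8 and KRT18 were well expressed in both lines, while the epithelial markers EPCAM and KRT19 reached at most 0.660 and 0.609 CPM in H1299, whose table does not list CDH1. The leukocyte markers PTPRC, AIF1, CD3E and MS4A1 are listed in neither table.

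The lines differed in which of the signals they made. To set genes beside each other, CPM was divided by the length of each gene's merged exons in kb. In A549 control cells CXCL5 stood highest at 76.1 ± 7.71 CPM per kb, followed by LIF at 25.0 ± 1.10 CPM per kb. CXCL1 (8.21 ± 3.32), CCL2 (7.74 ± 1.41) and CXCL8 (4.61 ± 2.74 CPM per kb) came next, and their ranges overlapped. CXCL2 (2.24 ± 0.603) and CXCL3 (1.46 ± 0.347 CPM per kb) overlapped too, and CCL20 (0.202 ± 0.0665) and IL1A (0.0412 ± 0.0135 CPM per kb) had few reads. In H1299 control cells LIF stood at 27.7 ± 10.8 CPM per kb and CXCL2 at 16.4 ± 1.57 CPM per kb. CXCL1 (0.398 ± 0.143) and CXCL3 (0.200 ± 0.0434 CPM per kb) were far below them, and none of these 4 ranges overlapped. The order therefore had CXCL5 on top in A549 and LIF on top in H1299.

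**Figure D1:**
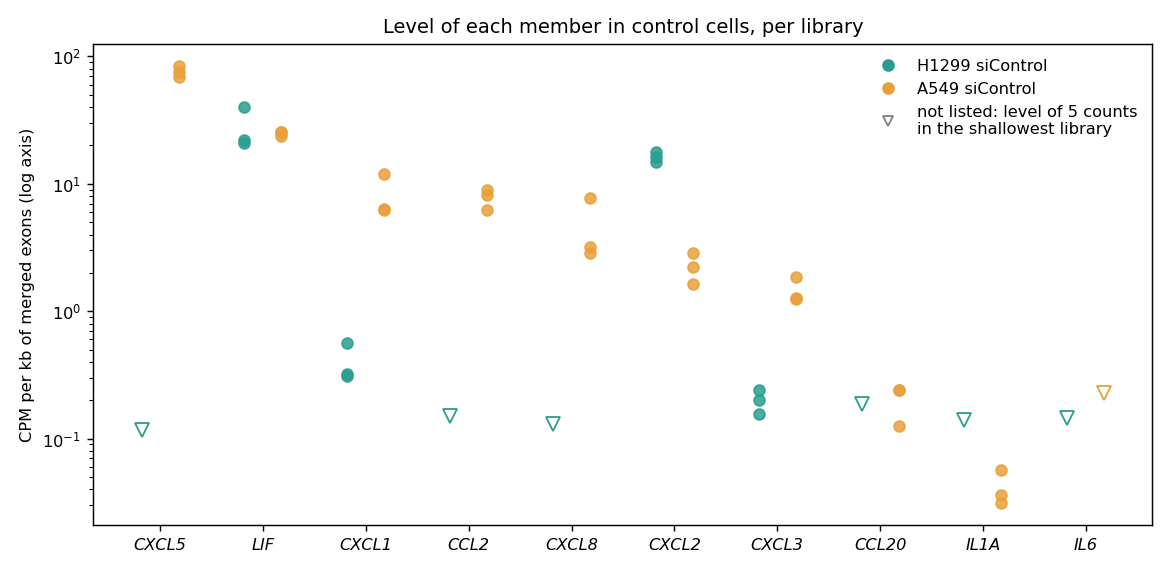
Level of each of the 10 genes in siControl cells, in CPM per kb of merged exons on a log axis, with 1 filled point per library (H1299 in green, A549 in orange). An open triangle marks a gene that a table does not list and stands at the level of 5 counts in the shallowest library of that line. CXCL5 in A549, at 76.1 ± 7.71 CPM per kb, is the highest point set, and 6 of the 10 genes have only a triangle in H1299.

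Each gene in the tables reaches 6 counts or more in at least 1 library, so a gene left out by that limit had at most 5 counts in every library. For CXCL5, CXCL8, CCL2, CCL20, IL6 and IL1A in H1299 this corresponds to at most 0.238 to 0.298 CPM, depending on the library. For IL6 in A549 it corresponds to at most 0.108 to 0.472 CPM. CXCL5 and CXCL8, which averaged 193 and 10.5 CPM in A549 control cells, were thus below the limit in every H1299 library. Across the run of 9 CXC genes on chromosome 4 from CXCL8 to CXCL2, the H1299 table lists CXCL1, CXCL3 and CXCL2, while the A549 table adds CXCL8, CXCL5 and PF4, the last with 27 counts over the 9 libraries. Whether a lower level here means fewer cells making the transcript or less of it per cell cannot be told apart in bulk RNA, and the same holds for every difference that follows.

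The 4 genes measured in both lines were tested between control cells in a joint fit of all 18 libraries. In that fit 78.5% of all genes differed between the lines, and 3 of the 4 did, so this share is near the background. CXCL2 had 22.5 ± 2.20 CPM in H1299 and 3.82 ± 1.05 CPM in A549 control cells on the joint scale, a log2 difference of 2.54 ± 0.17 (SE, adjusted p = 4.33e-11). Its neighbour CXCL1 ran the other way, with 0.472 ± 0.169 CPM in H1299 and 12.1 ± 4.94 CPM in A549 control cells (log2 difference -4.60 ± 0.29, adjusted p = 1.89e-11). CXCL3 did likewise, with 0.406 ± 0.0878 CPM in H1299 and 3.70 ± 0.906 CPM in A549 (log2 difference -3.20 ± 0.28, adjusted p = 3.03e-09). The 3 paralogs, with nearly the same sequence before their starts, thus did not share a direction between the lines. LIF averaged 101 ± 39.5 CPM in H1299 and 113 ± 4.92 CPM in A549 control cells, and its difference of -0.16 ± 0.22 did not pass (adjusted p = 0.503). Without H1299 siControl replicate 1, which had the highest LIF level of the H1299 controls, LIF was called lower in H1299 by 0.53 on the log2 scale (adjusted p = 0.0189). Line, medium and experiment go together in these data and cannot be told apart.

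In A549 siTAZ cells 5 of the 7 tested genes were lower than in control cells, all of them chemokines, CXCL5, CXCL1, CCL2, CXCL8 and CXCL2. No tested member was higher. Among all 16008 genes tested, 13.3% were called in either direction and 6.12% were called lower. The median log2 change was -0.46 over the 7 members and 0.00 over all genes. The authors' table for this line carries batch-adjusted values, and the study's own fit of it had the replicate number as a batch term. For that reason the fit used here carries the replicate number as a block. Libraries of the same number also deviated together.

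CXCL5, the most abundant chemokine in the line, had 152.1, 100.4 and 91.6 CPM in siTAZ cells (replicates 1 to 3), against 214.0, 190.3 and 175.2 CPM in siControl cells. Every siTAZ library was below every control library. The log2 change was -0.78 ± 0.05 (SE, adjusted p = 2.19e-13), and the siTAZ libraries held 71.1%, 52.7% and 52.3% of the same-numbered control.

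CXCL1, a growth-regulated neutrophil attractant, had 5.79, 4.58 and 11.8 CPM in siTAZ cells, against 8.29, 8.03 and 15.6 CPM in siControl cells. Replicate 3 was high in both groups, so the groups overlap, while each siTAZ library was below its same-numbered control at 69.8%, 57.0% and 75.6% of it. The log2 change was -0.57 ± 0.10 (adjusted p = 7.38e-05).

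CCL2, the monocyte attractant on chromosome 17 (chr17:34255218-34257203), had 8.63, 10.9 and 15.7 CPM in siTAZ cells, against 12.3, 16.1 and 17.7 CPM in siControl cells. The groups overlap, and each siTAZ library was lower than its own control, at 70.4%, 67.8% and 88.4%. The log2 change was -0.43 ± 0.08 (adjusted p = 0.000256).

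CXCL8, which encodes interleukin 8, had 5.79, 5.08 and 13.5 CPM in siTAZ cells, against 6.57, 7.21 and 17.7 CPM in siControl cells. Here again replicate 3 stood far above the other replicates in both groups. The log2 change was -0.37 ± 0.09 (adjusted p = 0.00593). CXCL2 had 2.06, 1.73 and 3.34 CPM in siTAZ cells, against 2.45, 3.34 and 4.26 CPM in siControl cells, with a log2 change of -0.56 ± 0.17 (adjusted p = 0.0179). Both genes were lower in 3 of 3 same-numbered pairs with overlapping groups.

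CXCL3 and LIF did not pass in A549 siTAZ cells. CXCL3 had 3.29, 2.39 and 1.88 CPM in siTAZ cells, against 2.79, 4.14 and 2.82 CPM in siControl cells (log2 change -0.46 ± 0.17, adjusted p = 0.0753). It was lower in 2 of 3 pairs, and without siTAZ replicate 1 it was called lower by 0.72 on the log2 scale (adjusted p = 0.0109). LIF had 94.8, 104.6 and 89.6 CPM in siTAZ cells, against 101.2, 102.1 and 94.1 CPM in siControl cells, a log2 change of -0.04 ± 0.04 (adjusted p = 0.632). LIF was thus the member with the smallest standard error and no called change, while chemokines with far fewer reads moved. Reads of LIF (chr22:30240447-30246851, minus strand) cannot be told apart from those of the antisense genes LIF-AS1 and AC004264.1 that overlap it, since the use of strand in counting is not given in the sources used here.

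**Figure D2:**
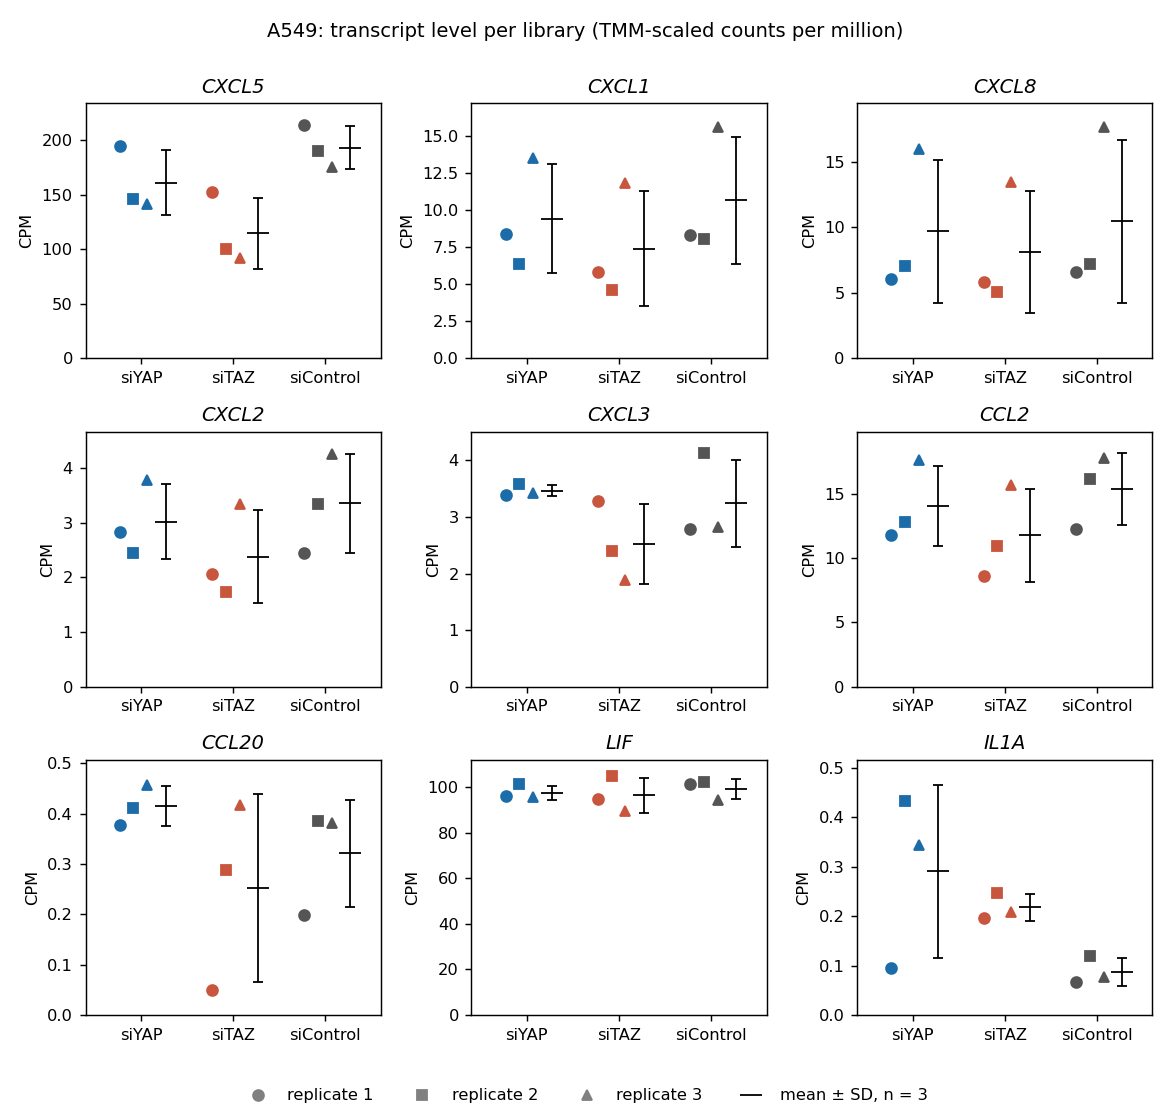
CPM of the 9 members listed in A549, 1 point per library, by siRNA, with circles, squares and triangles for replicates 1, 2 and 3 and bars for the mean ± SD of 3 libraries. CXCL5 in siTAZ cells (91.6 to 152.1 CPM) lies below all control libraries (175.2 to 214.0 CPM), and the triangles of CXCL8 and CXCL1 stand above the other replicates in every group.

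How firm these calls are differed between the genes. CXCL5 and CXCL1 were called lower without any 1 library and without any 3 libraries of the same number, with adjusted p up to 2.56e-09 and 0.0196. CCL2 lost its call without the libraries numbered 2 (adjusted p = 0.0764). CXCL8 lost it without siTAZ replicate 2 (0.0967), without the libraries numbered 2 (0.100) and without those numbered 3 (0.0811), and CXCL2 without siTAZ replicate 2 (0.238), without siControl replicate 2 (0.350) or without the libraries numbered 2 (0.476). In the authors' deposited table CXCL5 (adjusted p = 4.17e-11), CXCL1 (0.00192) and CCL2 (0.0104) had an adjusted p below 0.05, while CXCL8 (0.102) and CXCL2 (0.239) did not, and the authors' own pass column marks none of these genes. With no replicate block no member passed, and 1 gene in all was called.

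**Figure D3:**
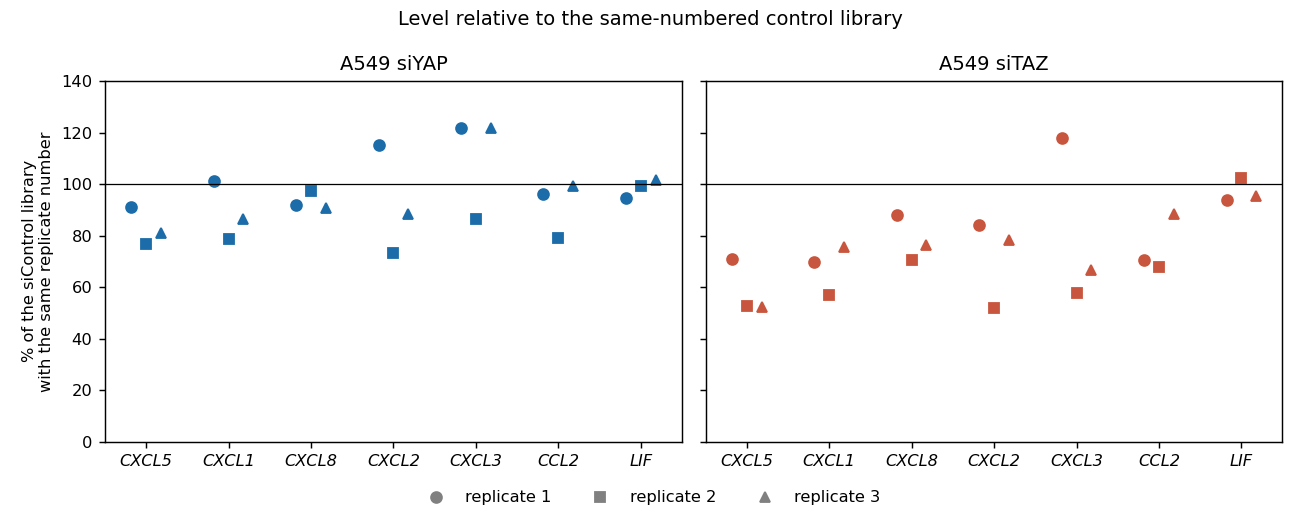
Level of the 7 tested members in A549 as a percent of the siControl library with the same replicate number, for siYAP (left) and siTAZ (right), with 1 point per pair and a line at 100%. In siTAZ cells all 3 points of CXCL5, CXCL1, CXCL8, CXCL2 and CCL2 lie below the line, from 51.9% to 88.4%.

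In A549 siYAP cells 1 of the 7 tested genes changed, CXCL5, which was lower. This compares with 5.68% of all genes called in either direction and 3.17% called lower. The siYAP comparison uses the same control libraries as the siTAZ comparison, so the values of each stand side by side only. CXCL5 had 195.2, 146.3 and 141.7 CPM in siYAP cells, against 214.0, 190.3 and 175.2 CPM in siControl cells. The groups overlap, since siYAP replicate 1 is above a pair of the controls, and the siYAP libraries held 91.2%, 76.8% and 80.9% of their own control. The log2 change was -0.28 ± 0.05 (adjusted p = 0.000525), which missed the threshold without siControl replicate 2 (-0.20, adjusted p = 0.0526), siYAP replicate 2 (-0.26, 0.0739) or the libraries numbered 2 (-0.22, 0.107). In the authors' deposited table its adjusted p was 0.214, and with no replicate block no member passed.

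For the other members in A549 siYAP cells, log2 changes ran from -0.25 to 0.01 and none passed. CXCL1 had 8.40, 6.33 and 13.5 CPM in siYAP cells, against 8.29, 8.03 and 15.6 CPM in siControl cells (log2 change -0.23 ± 0.09, adjusted p = 0.160). CCL2 had 11.8, 12.8 and 17.6 CPM in siYAP cells, against 12.3, 16.1 and 17.7 CPM in siControl cells (log2 change -0.20 ± 0.08, adjusted p = 0.150). It was called lower by 0.29 on the log2 scale without siControl replicate 3 (adjusted p = 0.0340). CXCL2 (-0.25 ± 0.16, adjusted p = 0.399), CXCL8 (-0.09 ± 0.09, 0.667), LIF (-0.02 ± 0.04, 0.850) and CXCL3 (0.01 ± 0.16, 0.989) lay closer to no change relative to their errors.

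Set directly against siTAZ, siYAP cells of A549 had more CXCL5 and CXCL1. Of the 7 members 2 were called, both higher in siYAP cells, while 7.04% of all genes were called and 2.52% were called higher. The log2 difference, siYAP over siTAZ, was 0.50 ± 0.05 for CXCL5 (adjusted p = 1.89e-08) and 0.34 ± 0.10 for CXCL1 (adjusted p = 0.0338). Both were higher in siYAP cells in 3 of 3 pairs. CXCL5 kept its call without any 1 library or any replicate number, whereas CXCL1 lost it without siYAP replicate 1 (adjusted p = 0.128), 2 (0.150) or 3 (0.0926), without siTAZ replicate 1 (0.0995) or 2 (0.281), and without the libraries numbered 1 (0.179) or 2 (0.238). CXCL8 (0.28 ± 0.09, adjusted p = 0.0617), CCL2 (0.23 ± 0.08, 0.0873), CXCL3 (0.46 ± 0.17, 0.101), CXCL2 (0.31 ± 0.17, 0.314) and LIF (0.02 ± 0.04, 0.878) did not pass. In the fit of the 6 siYAP and siTAZ libraries alone, 5 members were called higher in siYAP cells, CXCL8, CCL2 and CXCL3 joining CXCL5 and CXCL1, while with no replicate block none was called. For CXCL3 each of the siYAP libraries (3.40, 3.58 and 3.43 CPM) was above each of the siTAZ libraries (3.29, 2.39 and 1.88 CPM).

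In H1299 the 1 member called was CXCL2, the neutrophil attractant next to CXCL3, and it was lower after either knockdown. CXCL2 had 15.8, 15.6 and 16.2 CPM in siYAP cells and 18.6, 20.1 and 12.2 CPM in siTAZ cells, against 26.9, 24.5 and 22.2 CPM in siControl cells. All libraries of both knockdowns were below all control libraries, and they stood at 58.9%, 63.7% and 73.3% of the same-numbered control in siYAP cells and at 69.0%, 81.8% and 55.0% in siTAZ cells. The log2 change was -0.62 ± 0.15 in siYAP cells (adjusted p = 0.0146) and -0.53 ± 0.15 in siTAZ cells (adjusted p = 0.0224). It was thus 1 of 4 tested members in each comparison, where 16.6% of all genes were called in siYAP and 23.3% in siTAZ cells (8.75% and 12.4% called lower). With 4 members tested, 1 call is near the share of all genes called in either direction. Total count scaling in place of TMM turned the balance over all genes, with 1487 higher and 1087 lower in siYAP (against 1244 and 1381 with TMM) and 2330 higher and 1365 lower in siTAZ cells (against 1717 and 1963), while CXCL2 was called lower with either scaling. Both comparisons use the same controls.

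These calls missed the threshold in some of the fits with fewer libraries. The siYAP call was lost without siControl replicate 1 (log2 change -0.56, adjusted p = 0.0710), siYAP replicate 1 (-0.63, 0.0514) or siYAP replicate 3 (-0.63, 0.0537). Without the libraries numbered 1 the log2 change was -0.56 (adjusted p = 0.192), and without those numbered 3 it was -0.71 (adjusted p = 0.0706). The siTAZ call was lost without siControl replicate 1 (-0.45, 0.105), siTAZ replicate 3 (-0.33, 0.0940), the libraries numbered 1 (0.141) or those numbered 3 (0.147). The direction was the same in each of these fits. In the authors' deposited table CXCL2 had adjusted p = 0.00197 in siYAP and 0.00915 in siTAZ cells, and the authors' own pass column marks it in neither.

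The other 3 genes in H1299 did not pass in either comparison. CXCL3, at 4 to 14 counts per library, had 0.201, 0.427 and 0.428 CPM in siYAP cells and 0.762, 0.703 and 0.559 CPM in siTAZ cells, against 0.344, 0.536 and 0.449 CPM in siControl cells. Every siTAZ library was above every control and every siYAP library, yet the log2 change was 0.60 ± 0.36 (adjusted p = 0.250) in siTAZ cells and -0.33 ± 0.40 (adjusted p = 0.630) in siYAP cells.

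CXCL1 in H1299, at 5 to 22 counts per library, had 0.301, 0.374 and 0.760 CPM in siYAP cells and 1.20, 0.251 and 0.863 CPM in siTAZ cells, against 0.401, 0.417 and 0.730 CPM in siControl cells. The groups overlap, with log2 changes of -0.10 ± 0.55 (adjusted p = 0.922) in siYAP and 0.55 ± 0.51 (adjusted p = 0.466) in siTAZ cells. LIF had 104.6, 96.7 and 85.1 CPM in siYAP cells and 168.6, 77.1 and 115.0 CPM in siTAZ cells, against 159.4, 87.9 and 82.6 CPM in siControl cells. Its log2 changes were -0.20 ± 0.26 (adjusted p = 0.624) in siYAP and 0.13 ± 0.26 (adjusted p = 0.752) in siTAZ cells, and replicate 1 was the highest library of every group.

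Set against each other in H1299, siYAP and siTAZ cells differed in none of the 4 members by edgeR's adjusted p, where 11.7% of all genes were called. CXCL3 came closest, with a log2 difference of -0.92 ± 0.37, siYAP over siTAZ (edgeR adjusted p = 0.123), and 1 of the 4 members, CXCL3, had an unadjusted p below 0.05 (0.0248). DESeq2 called no member there either. CXCL1 (-0.65 ± 0.50, adjusted p = 0.452), LIF (-0.33 ± 0.26, 0.449) and CXCL2 (-0.09 ± 0.15, 0.759) had wide errors for their size, which does not show that the knockdowns act alike.

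**Figure D4:**
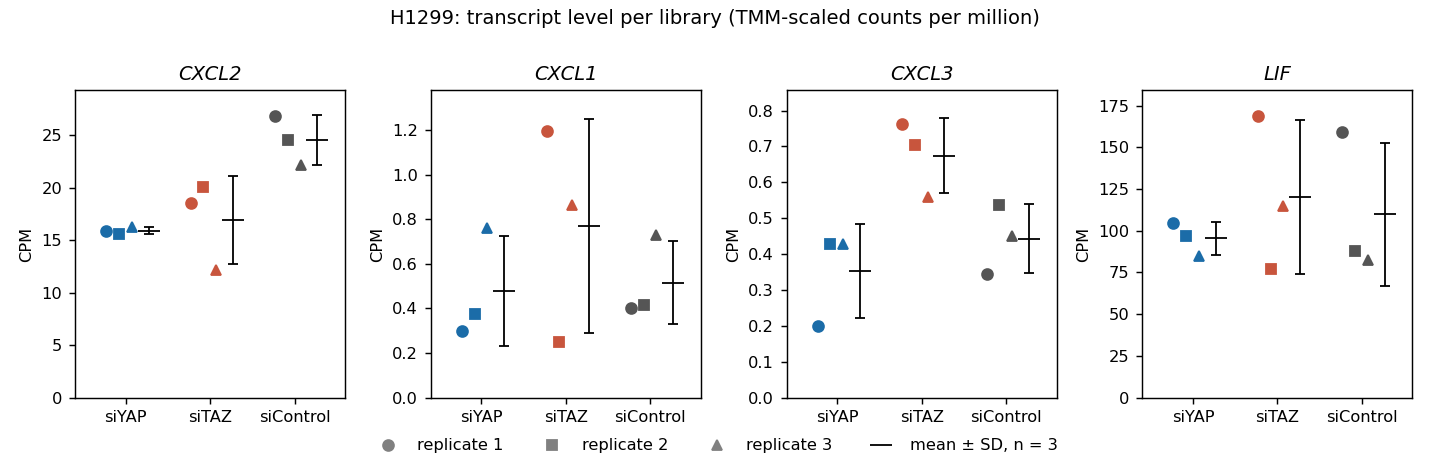
CPM of the 4 members listed in H1299, 1 point per library, by siRNA, with circles, squares and triangles for replicates 1, 2 and 3 and bars for the mean ± SD of 3 libraries. All siYAP (15.6 to 16.2 CPM) and siTAZ (12.2 to 20.1 CPM) libraries lie below the control libraries of CXCL2 (22.2 to 26.9 CPM), while the groups of CXCL1 and LIF overlap.

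Whether the lines responded differently was tested as an interaction for the 4 genes in both tables, and none passed, against 2.26% of all genes called for siYAP and 5.96% for siTAZ. For siTAZ, the H1299 change minus the A549 change was 1.11 ± 0.49 on the log2 scale for CXCL1 (adjusted p = 0.169) and 1.01 ± 0.43 for CXCL3 (adjusted p = 0.159). Their unadjusted p-values were 0.0334 and 0.0294, the only members below 0.05 in either interaction, and DESeq2 called none of the 3 members to which it gave an adjusted p. CXCL1 passed without H1299 siTAZ replicate 2 (1.56, adjusted p = 0.0166), the library with the weakest TAZ knockdown, and without the H1299 libraries numbered 2 (1.43, adjusted p = 0.0192). CXCL2, lower in siTAZ cells of both lines, had an interaction of 0.01 ± 0.24 (adjusted p = 0.986). For siYAP the CXCL2 interaction was -0.40 ± 0.25 (adjusted p = 0.428). LIF differed by -0.18 ± 0.31 for siYAP (adjusted p = 0.815) and 0.16 ± 0.31 for siTAZ (adjusted p = 0.798). The remaining siYAP interactions were 0.11 ± 0.53 for CXCL1 (adjusted p = 0.948) and -0.38 ± 0.47 for CXCL3 (adjusted p = 0.776). CXCL5, CXCL8 and CCL2 could not be compared, being unlisted in H1299.

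**Figure D5:**
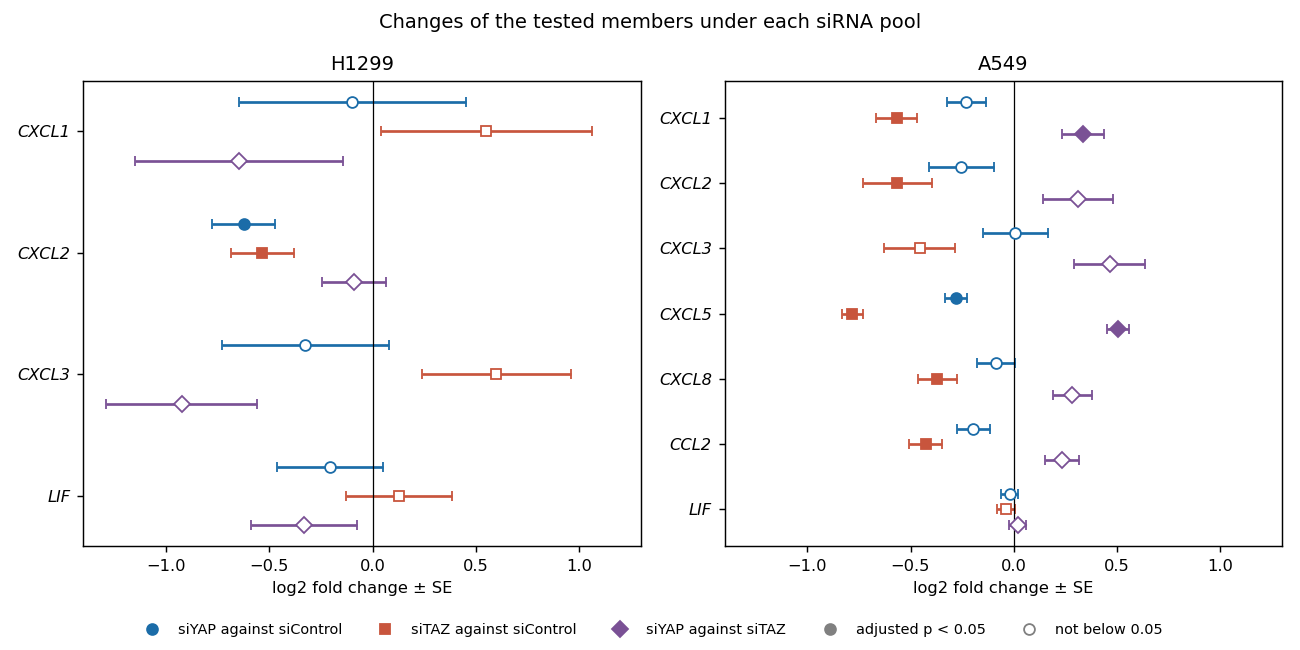
Log2 fold change ± SE of each tested member in H1299 (left) and A549 (right), for siYAP against siControl (circles), siTAZ against siControl (squares) and siYAP against siTAZ (diamonds), filled where the adjusted p is below 0.05. In A549 the siTAZ squares run from -0.78 for CXCL5 to -0.04 for LIF with 5 filled, and in H1299 only CXCL2 is filled, at -0.62 and -0.53.

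A pair of members was detected in A549 at the edge of the depth. IL1A, an alarmin of epithelial cells (chr2:112773915-112784590), had 1, 20 and 6 reads in siYAP cells and 4, 6 and 5 reads in siTAZ cells, against 1, 5 and 1 reads in siControl cells. In CPM the siTAZ libraries (0.196, 0.248 and 0.209) were each above each control library (0.0663, 0.120 and 0.0761), while the siYAP group overlapped the controls. With no filter on low counts, the fit gave a log2 change of 1.74 ± 0.61 for siYAP (adjusted p = 0.0889) and 1.23 ± 0.69 for siTAZ (adjusted p = 0.311). In total 27 reads in siYAP, 15 in siTAZ and 7 in siControl cells stand behind these values. CCL20 (chr2:227805739-227817564) had 4, 19 and 8 reads in siYAP cells and 1, 7 and 10 in siTAZ cells, against 3, 16 and 5 in siControl cells, with adjusted p = 0.871 for siYAP and 0.751 for siTAZ. A change in CCL20 was not detectable at this depth.

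In A549 the replicate number moved several chemokines more than either siRNA did. CXCL8 averaged 6.13, 6.44 and 15.7 CPM over the 3 siRNA groups in replicates 1, 2 and 3, so replicate 3 was 2.50 times the mean of the other replicates. The ratio of its highest to its lowest siRNA group mean was 1.29. CXCL1 (7.49, 6.31 and 13.6 CPM), CXCL2 (2.45, 2.51 and 3.79 CPM) and CCL2 (10.9, 13.3 and 17.0 CPM) were also highest in replicate 3. CXCL5 ran the opposite way, with 187, 146 and 136 CPM. A test of the replicate number in the blocked fit, chosen after the values were seen, passed for 6 of the 7 tested members, where 55.9% of all genes passed. Adjusted p was 5.19e-16 for CXCL8, 1.17e-12 for CXCL1, 6.61e-10 for CXCL5, 2.26e-07 for CCL2, 0.00135 for CXCL2 and 0.0144 for LIF, and CXCL3 did not pass (0.197). What the replicate number stands for is not given in the labels.

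Across the 9 A549 libraries, with each siRNA group's mean taken away, CXCL1, CXCL2 and CXCL8 went up and down together. As a description, Pearson's r of log2 CPM was 0.95 between CXCL1 and CXCL8, 0.94 between CXCL1 and CXCL2 and 0.91 between CXCL2 and CXCL8. CXCL5, which lies between them on the chromosome, had r of -0.42 with CXCL1, -0.60 with CXCL8 and -0.84 with CCL2. The paralog CXCL3 did not follow them either, with r of -0.54 with CXCL1, -0.34 with CXCL2 and -0.49 with CXCL8. In H1299, where CXCL1 had few reads, r between CXCL1 and CXCL2 was -0.42. The libraries share replicate numbers, and the members named with r above 0.9 were also the ones highest in replicate 3. In H1299 the replicate number passed for LIF (144, 87.2 and 94.2 CPM in replicates 1, 2 and 3, adjusted p = 0.0194 in the blocked fit) but not for CXCL2 (0.267), CXCL1 (0.220) or CXCL3 (0.794), against 5.28% of all genes.

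The paralogs may also exchange reads. Of the stretches of 50 bases in CXCL2 transcripts, 12.5% also occur in another of these 5 CXC genes, as do 6.01% in CXCL3 and 4.81% in CXCL1, and none in CXCL5 or CXCL8. How reads that fit several genes were assigned is not given in the sources used here, so the counts of CXCL1, CXCL2 and CXCL3 are less certain in this respect than those of CXCL5 and CXCL8.

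The next list holds receptors and antagonists of chemokines and cytokines, some of them for signals outside the 10. Of 12 tested, 5 were higher and 2 lower in A549 siTAZ cells (median log2 change 0.13). In H1299 3 of 10 were higher and 1 lower in siYAP and 4 higher and 1 lower in siTAZ cells. None of the 12 passed in A549 siYAP cells. The share of all genes called was 13.3% in A549 siTAZ, 5.68% in A549 siYAP, 16.6% in H1299 siYAP and 23.3% in H1299 siTAZ cells. IL1R1, the receptor of IL-1 alpha, averaged 77.4 ± 10.7 CPM in siTAZ and 56.0 ± 7.49 CPM in siControl cells of A549 (log2 change 0.47 ± 0.05, adjusted p = 2.79e-09). IL1R1 also rose in H1299 siTAZ cells (0.77 ± 0.15, adjusted p = 0.00283). IL1RAP, of the same list, went the other way. It was lower in A549 siTAZ (-0.40 ± 0.12, adjusted p = 0.0156) and in H1299 siTAZ cells (-1.13 ± 0.21, 0.00283). It was also lower in H1299 siYAP cells (-0.94 ± 0.21, 0.00985) and did not pass in A549 siYAP cells (-0.24 ± 0.11, 0.244). IL6R rose by 0.34 ± 0.05 on the log2 scale in A549 siTAZ cells (adjusted p = 3.02e-06) and by 0.98 ± 0.22 in H1299 siYAP cells (adjusted p = 0.00919). CXCR4, a chemokine receptor that binds CXCL12, had 1.78 ± 0.714 CPM in siTAZ and 4.32 ± 2.96 CPM in siControl cells of A549 (log2 change -1.26 ± 0.18, adjusted p = 3.31e-06). In H1299 it was called the other way, with 3.30 ± 0.440 CPM in siTAZ and 2.07 ± 0.534 CPM in siControl cells (log2 change 0.68 ± 0.22, adjusted p = 0.0394).

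Few chemokines or cytokines outside the 10 were tested. Of 16 other chemokines 2 passed the filter in each line, and CCL28 (0.45 ± 0.12, adjusted p = 0.0161) and CXCL16 (0.52 ± 0.14, adjusted p = 0.0191) were higher in H1299 siTAZ cells. In H1299 siYAP cells and in both knockdowns of A549 neither of the tested pair passed. Of 10 other cytokines tested in each line, 2 were higher in H1299 siYAP cells, 2 were higher and 1 lower in H1299 siTAZ cells, none passed in A549 siYAP cells and 1 was lower in A549 siTAZ cells. That last gene was IL18, an inflammasome cytokine, with 65.7 ± 6.02 CPM in siTAZ and 86.3 ± 12.7 CPM in siControl cells (log2 change -0.38 ± 0.05, adjusted p = 9.69e-08). CTF1, which signals through gp130 as LIF does, rose by 0.70 ± 0.17 in H1299 siYAP cells (adjusted p = 0.0142), and IL12A fell by 1.24 ± 0.37 in H1299 siTAZ cells (adjusted p = 0.0266). Beside these counts, 16.6%, 23.3%, 5.68% and 13.3% of all genes were called in H1299 siYAP, H1299 siTAZ, A549 siYAP and A549 siTAZ cells.

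Of 14 NF-κB subunits and activating kinases, 4 were lower in H1299 siYAP, 4 in H1299 siTAZ, 2 in A549 siYAP and 2 in A549 siTAZ cells, and none was higher in any of them. Over all genes 16.6%, 23.3%, 5.68% and 13.3% were called in either direction in these comparisons in that order, and 8.75%, 12.4%, 3.17% and 6.12% were called lower. Their median log2 changes in that order were -0.22, 0.09, -0.06 and -0.05, so in H1299 siTAZ cells the median and the calls differ in sign. MAP3K14, the kinase of the alternative NF-κB pathway, was lower in all 4 knockdown comparisons, with log2 changes of -0.52 ± 0.15 in H1299 siYAP (adjusted p = 0.0318), -0.45 ± 0.15 in H1299 siTAZ (0.0485), -0.31 ± 0.06 in A549 siYAP (0.00147) and -0.43 ± 0.06 in A549 siTAZ cells (4.39e-06). NFKB2, which encodes p100 and p52 of that pathway, fell by 0.26 ± 0.05 in A549 siYAP (adjusted p = 0.00222), 0.21 ± 0.05 in A549 siTAZ (0.00589) and 0.53 ± 0.16 in H1299 siYAP cells (0.0334). In H1299 siTAZ cells the NFKB2 change had the other sign and did not pass (0.23 ± 0.15, adjusted p = 0.292). The adaptor TRAF2 fell by 0.50 ± 0.09 in siYAP (adjusted p = 0.00333) and 0.37 ± 0.09 in siTAZ cells of H1299 (0.0111).

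NF-κB feedback genes, many of which are themselves induced by NF-κB and which restrain or tune it, separated the knockdowns in H1299. Of 13 tested, 6 were lower in siYAP cells, 3 were higher in siTAZ cells, and 9 were lower in siYAP than in siTAZ cells. In H1299 16.6% of all genes were called in siYAP (8.75% lower), 23.3% in siTAZ and 11.7% between siYAP and siTAZ cells. The siTAZ count is thus near its background. The median log2 change of the 13 was -0.42 in siYAP and 0.15 in siTAZ cells, against 0.01 over all genes in each. BIRC3 averaged 82.8 ± 22.1 CPM in siYAP and 174 ± 40.3 CPM in siControl cells of H1299 (log2 change -1.07 ± 0.20, adjusted p = 0.00408). The deubiquitinase CYLD rose by 0.78 ± 0.15 in H1299 siTAZ cells (adjusted p = 0.00289). CXCL2, in contrast, was lower in both knockdowns of H1299. In A549, where the chemokines fell in siTAZ cells, 1 feedback gene was higher there, BCL3 (0.26 ± 0.05, adjusted p = 0.00105), and 1 was lower in siYAP cells, BIRC3 (-0.25 ± 0.07, adjusted p = 0.0214). All-gene shares in A549 were 13.3% called in siTAZ and 5.68% in siYAP cells. BCL3 was also higher in H1299 siTAZ cells (0.67 ± 0.17, adjusted p = 0.0121).

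Of 11 AP-1 and C/EBP factors tested, 5 were higher and none lower in A549 siTAZ cells, where 13.3% of all genes were called, and none passed in A549 siYAP cells. The median log2 change of the 11 was 0.17 in siTAZ and 0.01 in siYAP cells of A549. FOS averaged 11.6 ± 1.46 CPM in siTAZ and 7.47 ± 0.269 CPM in siControl cells of A549 (log2 change 0.65 ± 0.09, adjusted p = 3.33e-06). JUND rose by 0.29 ± 0.04 (adjusted p = 1.32e-06) and FOSL2 by 0.17 ± 0.04 (adjusted p = 0.00317). In H1299, 3 of the 11 were lower in siYAP cells, and 1 was higher and 3 lower in siTAZ cells. There 16.6% of all genes were called in siYAP and 23.3% in siTAZ cells.

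Of 9 factors that control the decay of cytokine mRNAs, several of them through AU-rich elements, 2 were higher in A549 siTAZ cells, ZFP36L2 (0.36 ± 0.04, adjusted p = 9.13e-08) and ZFP36 (0.26 ± 0.06, adjusted p = 0.00161), and KHSRP was lower (-0.15 ± 0.04, adjusted p = 0.00855), with a median log2 change of 0.00 over the 9. KHSRP also fell in H1299 siTAZ cells (-0.40 ± 0.10, adjusted p = 0.0122), and ZFP36L2 fell in H1299 siYAP cells (-0.43 ± 0.13, adjusted p = 0.0436). In A549 siYAP cells 1 of the 9 was lower, in H1299 siYAP cells 2 were lower, and in H1299 siTAZ cells 1 was higher and 2 were lower. Of all genes, 13.3% were called in A549 siTAZ, 5.68% in A549 siYAP, 16.6% in H1299 siYAP and 23.3% in H1299 siTAZ cells. Of 10 genes of STAT3 and gp130 signalling, which act downstream of LIF and IL-6, none was higher in any knockdown, and 1, 2, 1 and 2 were lower in H1299 siYAP, H1299 siTAZ, A549 siYAP and A549 siTAZ cells, beside 8.75%, 12.4%, 3.17% and 6.12% of all genes. Among them SOCS3 fell by 0.57 ± 0.14 in H1299 siTAZ cells (adjusted p = 0.0124). In A549 siTAZ cells SOCS2 fell by 0.40 ± 0.10 (adjusted p = 0.00368) and PTPN11, a phosphatase, by 0.27 ± 0.04 (adjusted p = 1.96e-05). PTPN11 also fell by 0.16 ± 0.04 in A549 siYAP (adjusted p = 0.0238) and 0.73 ± 0.12 in H1299 siTAZ cells (0.00172).

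Interferon response genes were mixed. In A549 siTAZ cells 4 of 12 were higher and 1 lower, with IFIH1 up by 0.53 ± 0.11 (adjusted p = 0.000534) and DDX58 up by 0.27 ± 0.06 (adjusted p = 0.000742). DDX58 was also higher in A549 siYAP cells (0.28 ± 0.06, adjusted p = 0.00134) and lower in H1299 siTAZ cells (-0.28 ± 0.09, adjusted p = 0.0300). In A549 siYAP cells DDX58 was the 1 of 12 called. In H1299, 2 of 10 were lower in siYAP cells, and 2 were higher and 1 lower in siTAZ cells. Beside this, 13.3% of all genes were called in A549 siTAZ, 5.68% in A549 siYAP, 16.6% in H1299 siYAP and 23.3% in H1299 siTAZ cells.

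Markers of other cells that could make these signals were low beside KRT8 and KRT18, but some reached the level of the scarcer chemokines. In A549 siControl cells CXCL2 averaged 3.35 CPM and CXCL3 3.25 CPM. In H1299 ITGAM reached 7.45 CPM, while CXCL1 averaged 0.516 CPM in siControl cells. Leukocyte markers (4 of 10 listed in H1299, 5 of 10 in A549) summed to 1.62 to 2.62 CPM in siYAP, 4.32 to 7.78 in siTAZ and 2.75 to 4.35 in siControl cells of H1299. In A549 they summed to 8.02 to 10.9 CPM in siYAP, 7.60 to 11.8 in siTAZ and 6.96 to 10.4 in siControl cells, of which CD14 made up 4.17 to 7.79 CPM. LYZ was higher in both knockdowns of A549, at 0.619 ± 0.329 CPM in siYAP cells (adjusted p = 0.0225) and 0.877 ± 0.228 CPM in siTAZ cells (adjusted p = 0.000223), against 0.219 ± 0.140 CPM in siControl cells. ITGAM, named after its values were seen, was lower in siYAP than in siTAZ cells of H1299 (log2 difference -1.57 ± 0.33, adjusted p = 0.00799). Endothelial and fibroblast markers (5 of 9 listed in H1299, 4 of 9 in A549) summed to at most 8.84 CPM in H1299 and 2.63 CPM in A549. In H1299 these were higher in both knockdowns (5.66 to 8.84 CPM in siYAP and 5.42 to 7.07 in siTAZ cells) than in siControl cells (3.34 to 4.60 CPM), with PDGFRB called higher in siYAP (adjusted p = 0.0156) and in siTAZ cells (0.0324) and VWF in siTAZ cells (0.0187).

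In A549, 4 of 6 epithelial markers (the keratins) were lower in siTAZ cells, and the same 4 were lower and 1 (CDH1) higher in siYAP cells, where 1 chemokine was called. Over all genes 6.12% were called lower in siTAZ and 3.17% in siYAP cells. The 6 markers summed to 3891 to 5100 CPM in siTAZ and to 5304 to 6637 CPM in siControl cells, and the 5 listed in H1299 to 320 to 404 CPM in siTAZ and 399 to 446 CPM in siControl cells. KRT18 fell by 0.54 ± 0.05, KRT7 by 0.56 ± 0.05 and KRT8 by 0.35 ± 0.04 on the log2 scale in siTAZ cells (adjusted p = 1.19e-10, 1.21e-10 and 2.26e-07). In siYAP cells they fell by 0.22 ± 0.05, 0.25 ± 0.05 and 0.16 ± 0.04 (adjusted p = 0.00207, 0.00121 and 0.0174). In H1299 KRT18 fell by 0.37 ± 0.10 in siTAZ cells (adjusted p = 0.0138) and KRT8 rose by 0.36 ± 0.11 in siYAP cells (adjusted p = 0.0396). The part of this keratin difference in the chemokine result was not tested.

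For the 3 members with the highest mean level among those tested in both lines, the genes with the most similar pattern were sought over the 18 libraries after each line's mean was taken away, among 9567 protein-coding genes (9566 for LIF) that averaged 5 CPM or more in each line. CXCL2 was most like TGFB2 (r = 0.88), CYTH3 (0.87) and KANSL3 (0.87). In each line alone these r values were between 0.83 and 0.92. CXCL1 was most like SMARCA2 (0.84), COL16A1 (0.82) and GABRE (0.80). For CXCL1 the r values in each line alone were between 0.74 and 0.93, but its H1299 libraries held only 5 to 22 counts each. For LIF the nearest were SLC47A1 (0.82), TVP23B (0.79) and P4HA1 (0.78), but in A549 alone their r was -0.54, -0.03 and 0.43, so that likeness rests on the H1299 libraries. These are descriptions over libraries that share controls, replicate numbers and depth.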

How the data were processed

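The authors deposited 1 table per line with raw read counts per gene symbol (used here), normalized counts (unit signal, not used), log2 values (regularized log in H1299 and batch-adjusted in A549, per the file headers, not used) and, from their own comparisons, log2 fold changes with p-values and adjusted ones, quoted only where named as the authors' deposited table. The submitters' processing notes name cutadapt, the aligner STAR 2.4.2a, DESeq2 and the build GRCh38. How reads were counted per gene, with which annotation and whether by strand, is not given in the sources used here.

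Groups and replicate numbers came from the sample titles. The 10 members, the other gene lists and the tests were chosen with earlier results of these data known. The 9 libraries of each line were fitted together with edgeR 4.0.16 in R 4.3.3 (filterByExpr by group, TMM, quasi-likelihood F test, Benjamini-Hochberg over all genes tested, calls at an adjusted p below 0.05). The filter left 15775 genes in H1299 and 16008 in A549, and 15816 in the joint fit of 18 libraries used for the interactions and for the lines. The A549 fit has the replicate number as a block and the H1299 fit has none, following the study's own fit of each line.

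Replicate numbers are those of the titles. Deviations from the group means correlated between same-numbered libraries at 0.108 to 0.383 in H1299 and 0.384 to 0.729 in A549. Between different-numbered libraries r ran from -0.324 to 0.160 in H1299 and from -0.550 to 0.279 in A549. The ranges thus overlapped in H1299 and not in A549. Each same-numbered r was above 0.1, and on that rule the numbers were taken to pair the libraries. Errors of log2 changes are standard errors of the fit, from the F statistic. Log2 CPM values used a prior count of 2 for the pattern likeness and the pairing of libraries, and none for the correlations among members. The fits were checked on simulated data. Named genes are the 10 members, YAP1, WWTR1 and, of each other list, the 3 genes with the smallest adjusted p in a knockdown comparison. Some genes of the other lists are not reported here. Genes named for other reasons (markers, PF4, IL1RAP) were chosen after their values were seen. Alternatives were RLE and total count scaling, DESeq2 1.42.0, no filter, the block added or dropped, 2 groups only, and leaving out each library or replicate number. Positions and exon lengths are from GENCODE release 29 and promoters from RefSeq (GRCh38.p14). Counts per library limit the precision of genes with few reads.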

Additional observations from a re-analysis of the deposited data

How the results depend on the processing

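Single-gene results were the same in direction and side of the threshold in 838 recomputed values, while 37 lost a call, 17 gained one and 46 changed sign. The number of members called was 0 with DESeq2 (main 1) in A549 siYAP against siControl, 3 in siTAZ against siControl (main 5; CXCL8 had adjusted p = 0.0581 and CXCL2 had none) and 1 in siYAP against siTAZ (main 2). With no replicate block it was 0 in each of these 3 A549 comparisons, whereas adding the block in H1299 changed no member's call (CXCL2 adjusted p = 0.00247 in siYAP and 0.00389 in siTAZ cells). With the siYAP and siTAZ libraries only, 5 members were called in A549 siYAP against siTAZ. Leaving out libraries gave 0 to 1 member called in each H1299 knockdown, 0 in H1299 siYAP against siTAZ, 0 to 2 in A549 siYAP, 2 to 6 in A549 siTAZ, 1 to 4 in A549 siYAP against siTAZ, 0 in the siYAP interaction, 0 to 1 in the siTAZ interaction and 3 to 4 between lines.

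Sign changes were all in values that did not pass. The A549 siYAP change of CXCL3 was -0.000921 with RLE, -0.00467 with no filter and -0.0203 with 2 groups only, the siTAZ interaction of CXCL2 was -0.0601 with no replicate block, and the LIF difference between lines was 0.0600 with total counts. With libraries left out, CXCL1 ranged from -0.61 to 0.23 (siYAP), -0.0512 to 0.99 (siTAZ) and -1.18 to 0.0362 (siYAP against siTAZ) in H1299, LIF from -0.39 to 0.16 (siYAP) and -0.20 to 0.50 (siTAZ), and CXCL2 from -0.30 to 0.0615 (siYAP against siTAZ). In A549, CXCL2 ranged from -0.36 to 0.00763 and CXCL3 from -0.15 to 0.36 (siYAP), and LIF from -0.0187 to 0.0594 (siYAP against siTAZ). Interactions ranged from -0.41 to 0.44 (CXCL1, siYAP), -0.35 to 0.19 (LIF, siYAP), -0.24 to 0.22 (CXCL2, siTAZ) and -0.16 to 0.53 (LIF, siTAZ), and the LIF difference between lines from -0.55 to 0.00900. The causes were not tested. Depth limits CXCL1 and CXCL3 in H1299 and CCL20 and IL1A in A549, and the fits that leave out a library assume that the remaining libraries vary alike.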
